A study of Mus musculus with 8 samples.

Results

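RNA levels of 10 S100 calcium-binding protein genes were followed in sorted mouse mammary tumor cells: S100a1, S100a4, S100a6, S100a8, S100a9, S100a10, S100a11, S100a13, S100a14 and S100a16. They were chosen by name as members of the S100 family and are 10 of the 53697 genes in the count table, and all 10 were tested. The tumors came from MMTV-PyMT mice, in which the mouse mammary tumor virus promoter drives the polyoma middle T oncogene in mammary epithelium, and all mice were on the C57BL/6 background. Cells were sorted on Dll1, a ligand of the Notch receptors, by means of a reporter. In 2 PyMT-Dll1GFP mice (mouse 1 and mouse 2) the reporter was the Dll1GFP-IRES-Cre-ERT2 knock-in allele, and in 2 PyMT-Dll1mCh mice (mouse 3 and mouse 4) it was a BAC transgene with mCherry. Each mouse gave 1 Dll1+ and 1 Dll1- library, 8 libraries in all, so each of the 4 groups held 2 mice. The tumors were digested with collagenase and hyaluronidase, and cells with CD45, CD31 or Ter119 on their surface, which mark leukocytes, endothelium and red cells, were sorted out. Sex and age of these mice are not given in the sources used here.

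S100 proteins are small proteins of the EF-hand type that mostly act as pairs. On binding calcium most of them expose a surface that grips other proteins, such as annexins, myosins or growth factors about to be released. Several also leave the cell and act as ligands of the receptors Ager (RAGE) and Tlr4. In tumors they are best known for S100a4, linked to cell motility and used as a fibroblast marker, and for S100a8 and S100a9, which pair to form calprotectin, a major protein of neutrophils.

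Total counts ranged from 27301396 to 123907626 per library, and levels are given as CPM, which are counts scaled to a common library size with TMM factors. The sort was visible in Dll1, which stood at 7.61 to 50.3 CPM in the Dll1- and at 87.5 to 250.2 CPM in the Dll1+ libraries. The luminal epithelial markers were high throughout, with a sum of 6125 to 9770.5 CPM over 10 genes led by Krt8, Krt18 and Epcam. Markers of cell types meant to be sorted out, and of fibroblasts, were also present and differed between the reporters. The 14 macrophage markers summed to 106 to 137 CPM in the PyMT-Dll1GFP libraries, to 648 to 673 CPM in the Dll1- and to 289 to 299 CPM in the Dll1+ PyMT-Dll1mCh libraries. The 10 fibroblast markers summed to 1255 to 1466 CPM in the PyMT-Dll1GFP libraries, to 8515 and 24126 CPM in the Dll1- and to 3717 and 3851 CPM in the Dll1+ PyMT-Dll1mCh libraries. In such bulk libraries, fewer cells of a type and less RNA per cell cannot be told apart.

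All 10 genes lie on chromosome 3 (coordinates in GRCm38). The largest run holds S100a1 (chr3:90511034-90514392, minus strand), S100a13 (chr3:90514435-90524581), S100a14 (chr3:90526856-90528837), S100a16 (chr3:90537254-90543151), S100a4 (chr3:90603771-90606045), S100a6 (chr3:90612882-90624181), S100a8 (chr3:90668978-90670035) and S100a9 (chr3:90692632-90695721, minus strand). S100a11 (chr3:93520488-93526287) and S100a10 (chr3:93555080-93564643) are neighbors farther along the chromosome, and all but S100a1 and S100a9 are on the plus strand. RefSeq promoter sequences (GRCm38.p6, 250 bases before to 50 after a start site) were matched by symbol for 8 of the 10 genes, in 9 windows.

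The stretches before the start sites are shown for S100a4, S100a8 and S100a11, which differed between the reporters in both Dll1- and Dll1+ cells, and for S100a9, the partner of S100a8, each 5′ to 3′ on its own strand. They are S100a4 at chr3:90603670-90603769 (plus), S100a8 at chr3:90669029-90669058 (plus, 30 bases), S100a9 at chr3:90695722-90695821 (minus) and S100a11 at chr3:93520388-93520487 (plus). The stretch of S100a8 lies before the RefSeq start only. It is inside the annotated gene given above, in the first exon of a GENCODE transcript that starts at chr3:90668978. The last line gives the 42 bases between the annotated S100a1 and S100a13 genes, chr3:90514393-90514434 on the plus strand, which are shown because these neighbors start away from each other. S100a1 was called with Dll1 and S100a13 was not, and the difference between them was not tested. Capitals mark the motif TATAAA in S100a4 and S100a8, and in S100a11 the motif GGGCGG and 1 match to the motif TGANTCA.
S100a4: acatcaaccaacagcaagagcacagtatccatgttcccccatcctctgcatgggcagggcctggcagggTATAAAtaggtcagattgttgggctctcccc
S100a8: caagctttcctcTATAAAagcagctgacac
S100a9: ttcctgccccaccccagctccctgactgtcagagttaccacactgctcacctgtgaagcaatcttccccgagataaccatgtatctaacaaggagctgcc
S100a11: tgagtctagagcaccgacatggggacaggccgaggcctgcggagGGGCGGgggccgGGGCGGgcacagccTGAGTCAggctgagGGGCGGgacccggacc
S100a1-S100a13: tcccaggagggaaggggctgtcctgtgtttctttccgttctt

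TATAAA began 31 bases before the RefSeq start of S100a4 and 30 bases before that of S100a8, while in S100a9 it began at the start itself and is outside the stretch shown. With both strands searched, TATAAA was found in 3 of the 9 windows of the S100 genes and in 13.6% of all 32851 mouse promoter windows of the same length. The stretch of S100a11 had no TATAAA but 3 copies of GGGCGG, letters found in 3 of the 9 windows and in 35.7% of all windows. TGANTCA was found in 2 of the 9 windows, those of S100a11 and S100a16, and in 7.81% of all windows. CCAAT was found in 1 of the 9 windows (37.4% of all windows), TGGGAA in 4 (25.6%) and the NF-kB motif in 0 (4.51%). TGANTCA is its own reverse complement, TGGGAA can overlap the NF-kB motif, and a match describes the letters only.

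To compare the genes with each other, CPM was divided by the exon length of the gene. S100a11, a partner of annexins, was the highest, with 488 ± 129 CPM per kb (SD, n = 8 libraries), followed by S100a6 with 191 ± 106 CPM per kb. S100a1, best known from heart and skeletal muscle, followed with 102 ± 23.5 CPM per kb, and S100a10, the partner of Anxa2 that does not need calcium to bind, with 92.99 ± 52.7 CPM per kb. Over the libraries S100a11 ranged from 322 to 665 and S100a6 from 113 to 377 CPM per kb, and each gene's range overlapped that of the next gene in the order.

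**Figure D1:**
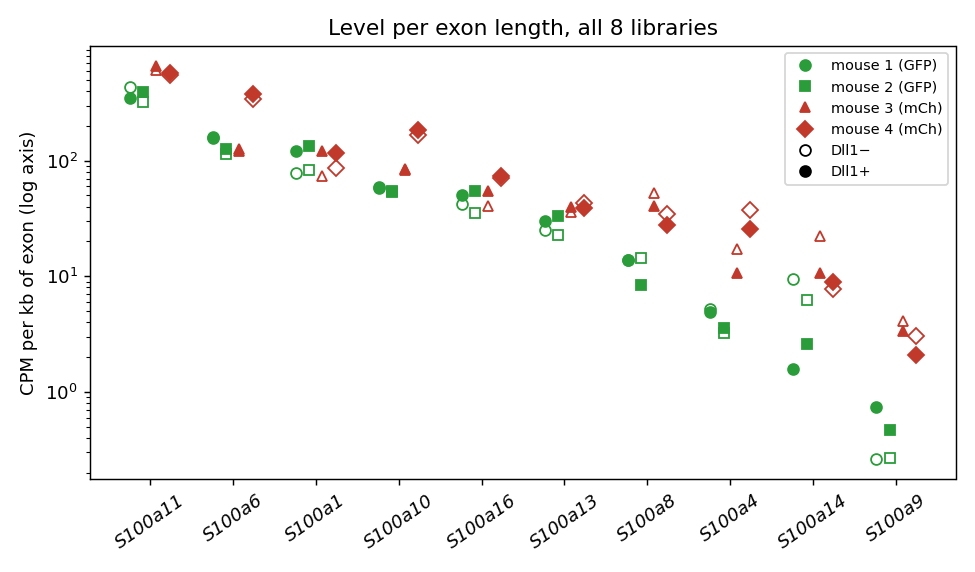
Level of each gene in each of the 8 libraries, in CPM per kb of exon on a log axis, with the genes ordered by their mean. Green symbols are the PyMT-Dll1GFP and red symbols the PyMT-Dll1mCh mice, open symbols are Dll1- and filled symbols Dll1+ cells, and the mean falls from 488 for S100a11 to 1.78 for S100a9.

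At the lower end stood S100a16 with 52.7 ± 13.9, S100a13 with 33.6 ± 7.20 and S100a8 with 25.7 ± 15.7 CPM per kb. S100a4 had 13.5 ± 12.6 CPM per kb, S100a14 had 8.68 ± 6.34, and S100a9 was the lowest with 1.78 ± 1.55 CPM per kb. S100a8 and S100a9 form calprotectin together, yet their levels were far apart in every library. The counts of S100a8 were 70.5, 24.9, 72.5 and 23.7 times those of S100a9 in the PyMT-Dll1GFP libraries (mouse 1 Dll1-, mouse 1 Dll1+, mouse 2 Dll1-, mouse 2 Dll1+), and 15.1 to 17.8 times in the 4 PyMT-Dll1mCh libraries. With the longest transcript in place of all exons, the levels of S100a6 and S100a10 rose to 333 and 165 CPM per kb, so that S100a10 ranked above S100a1. S100a8, at 35.9 CPM per kb, then ranked above S100a13.

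The first comparison asked which S100 genes differed between Dll1+ and Dll1- cells of the same mouse. Over the 4 mice, 1 of the 10 genes passed an adjusted p of 0.05 in edgeR's quasi-likelihood test with the mouse as a block, where 14% of the 18322 genes tested did. This gene was S100a1, which in muscle regulates the calcium pump and release channel. The median log2 difference of the 10 genes was 0.06, against -0.00068 for all genes tested.

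S100a1 was at 54.7 CPM in the Dll1- and 84.4 CPM in the Dll1+ cells of mouse 1, at 57.5 and 92.3 CPM in mouse 2, at 51.5 and 84.3 CPM in mouse 3, and at 59.5 and 80.6 CPM in mouse 4. All 4 Dll1+ libraries were above all 4 Dll1- libraries, in both reporter lines. The log2 difference was 0.62 (SE 0.064), a 1.53-fold higher level in Dll1+ cells, with an adjusted p of 0.0067 in edgeR's quasi-likelihood test, and it was higher in 4 of 4 mice. The mice differed little among themselves, with log2 differences of 0.63, 0.68, 0.71 and 0.44 in mice 1 to 4. The basal epithelial markers, led by Krt14, Lamb3 and Krt17, were also higher with Dll1. Their sum over 8 genes was 202 to 601 CPM in the Dll1- and 332 to 1631 CPM in the Dll1+ libraries, 5 of 8 were called higher, and their part in the S100a1 difference was not tested.

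**Figure D2:**
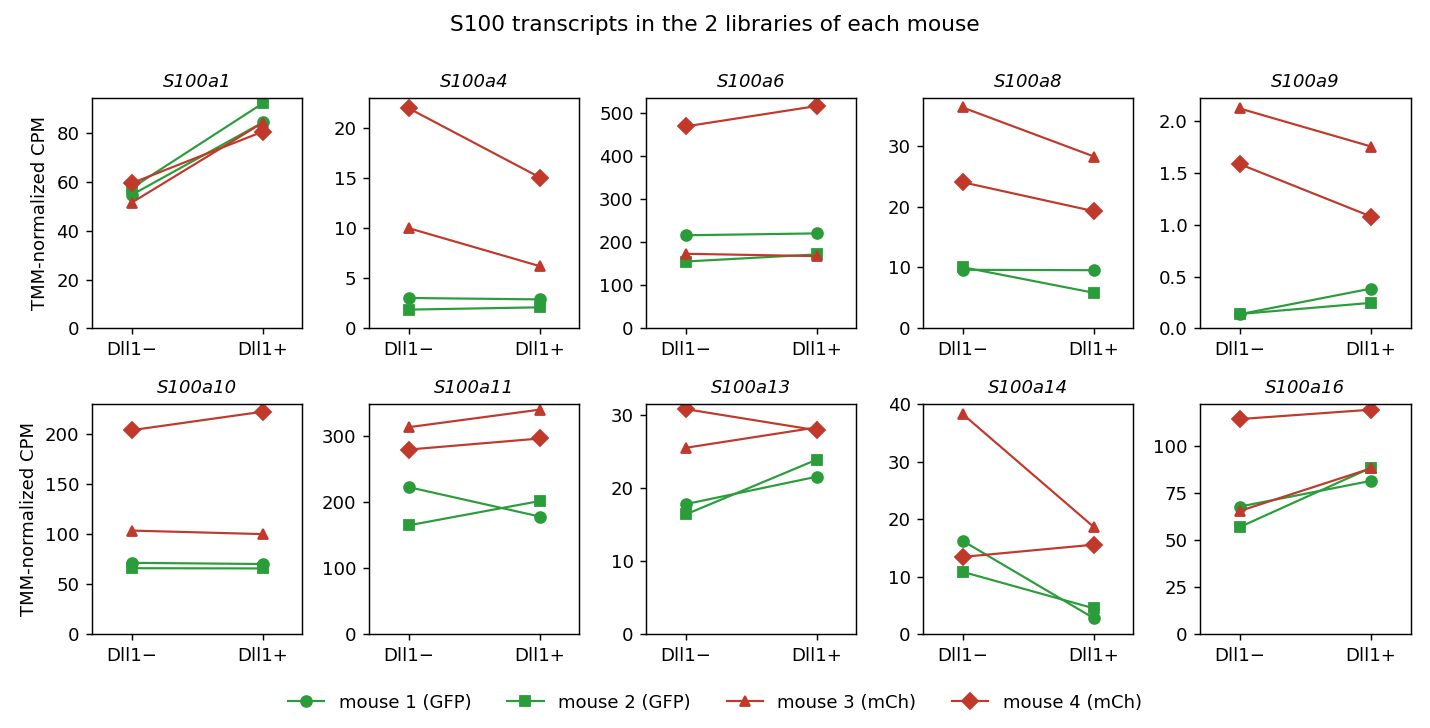
TMM-normalized CPM of the 10 S100 genes in Dll1- (left) and Dll1+ (right) cells, with a line joining the 2 libraries of each mouse, green for PyMT-Dll1GFP and red for PyMT-Dll1mCh, and a separate axis from 0 in each panel. S100a1 rises in all 4 mice, from between 51.5 and 59.5 to between 80.6 and 92.3 CPM, while S100a4, S100a8 and S100a9 are set apart by reporter.

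S100a13, whose gene starts next to that of S100a1 and which takes part in the release of Fgf1 and Il1a from cells, was at 17.8 and 21.6 CPM in the Dll1- and Dll1+ cells of mouse 1, at 16.4 and 23.9 CPM in mouse 2, at 25.5 and 28.3 CPM in mouse 3, and at 30.8 and 27.9 CPM in mouse 4. It was higher with Dll1 in 3 of 4 mice, and its groups overlapped. The log2 difference of 0.20 (95% interval -0.08 to 0.49) had an adjusted p of 0.273 in edgeR's test. The stretch shown between these genes held no match to the motifs searched.

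S100a16 was at 67.8 and 81.5 CPM in the Dll1- and Dll1+ cells of mouse 1, at 56.9 and 88.4 CPM in mouse 2, at 65.4 and 88.1 CPM in mouse 3, and at 114 and 119 CPM in mouse 4. It was higher with Dll1 in 4 of 4 mice, with mouse 4 well above the others on both sides. The log2 difference of 0.35 (SE 0.098) had an adjusted p of 0.0671 in edgeR's test, just outside the threshold. DESeq2 put it inside, with an adjusted p of 0.0190.

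S100a14, an S100 protein of epithelia, had the largest difference in the other direction and the largest spread. It was at 16.2 and 2.72 CPM in the Dll1- and Dll1+ cells of mouse 1, at 10.8 and 4.45 CPM in mouse 2, at 38.3 and 18.6 CPM in mouse 3, and at 13.4 and 15.5 CPM in mouse 4. It was lower with Dll1 in 3 of 4 mice, mouse 4 being the exception. The log2 difference of -1.12 (SE 0.451) had an adjusted p of 0.163 in edgeR's test and 0.0162 in DESeq2. Without mouse 4 it was -1.57, with an adjusted p of 0.0452 in edgeR's test.

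The other genes did not pass the test. S100a8 had a log2 difference of -0.37 (adjusted p 0.110 in edgeR's test). Its value was lower in the Dll1+ cells of 4 of 4 mice, but in mouse 1 by a log2 difference of only -0.0097. S100a4 had -0.32 (adjusted p 0.254) and S100a9 had 0.08 (adjusted p 0.899). S100a6, a partner of Cacybp and of annexins, had 0.07 with a 95% interval of -0.09 to 0.22. For S100a10 the log2 difference was 0.01 (-0.12 to 0.15) and for S100a11 it was 0.04 (-0.22 to 0.30), so differences as large as that of S100a1 lie outside the intervals of these 3 genes.

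The same effect was then fitted within each reporter. In the PyMT-Dll1GFP mice 1 of 10 genes was called, S100a1, where 9.13% of all genes tested were. Its log2 difference was 0.66 (SE 0.091, adjusted p 0.0113 in edgeR's test). With mouse 1 or mouse 2 left out its adjusted p was 0.124 and 0.155, the log2 difference being 0.69 and 0.63, and of all genes tested 20 and 2 were then called. S100a14 had -1.89 (SE 0.502, adjusted p 0.117), S100a16 had 0.45 (adjusted p 0.0919) and S100a13 had 0.41 (adjusted p 0.0922) in these mice.

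In the PyMT-Dll1mCh mice 2 of 10 genes were called, where 11.8% of all genes tested were. S100a1 was higher, with a log2 difference of 0.58 (SE 0.090, adjusted p 0.0169 in edgeR's test). This call was lost without mouse 3 (0.42, adjusted p 0.0680) and with these mice fitted alone (adjusted p 0.0794), where 0 of all genes were called. S100a4 was lower by a log2 difference of -0.62 (SE 0.150, adjusted p 0.0486). S100a4 fell from 10.02 to 6.21 CPM in mouse 3 and from 22.0 to 15.1 CPM in mouse 4, and in the same libraries the sum of the fibroblast markers went from 8515 to 3717 and from 24126 to 3851 CPM. Of these markers 6 of 10 were called lower with Dll1 in the PyMT-Dll1mCh and 0 of 10 in the PyMT-Dll1GFP mice, and of the macrophage markers 13 of 14 and 0 of 14. Their part in the difference of S100a4 was not tested. Without the mouse as a block the adjusted p was 0.0601 for S100a1 and 0.599 for S100a4, and leaving out any one of the 4 mice put S100a4 above the threshold, at 0.0740 to 0.193.

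None of the 10 genes passed the test of the difference between the effects in the reporters, where 0.071% of all genes tested did. By edgeR's unadjusted p under 0.05 there were 2 of 10, S100a4 and S100a9, where 13.2% of all genes tested were under it. S100a9 passed the filter on low counts through the PyMT-Dll1mCh libraries and had only 4 to 11 counts per PyMT-Dll1GFP library. For S100a1 the difference, PyMT-Dll1GFP minus PyMT-Dll1mCh, was 0.08 on the log2 scale with a 95% interval of -0.23 to 0.38. For S100a4 it was 0.66 (SE 0.229, adjusted p 0.301), so the decrease in the PyMT-Dll1mCh mice is not shown to differ from the value of 0.05 in the PyMT-Dll1GFP mice.

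**Figure D3:**
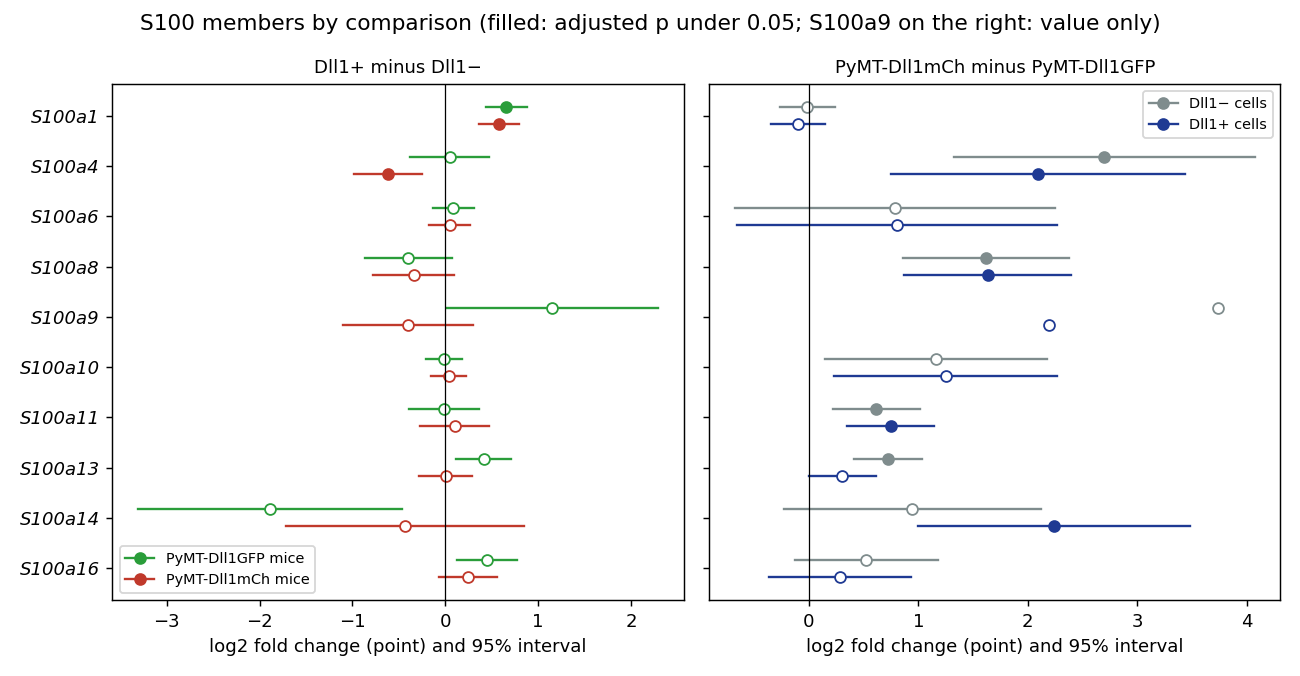
Log2 differences of the 10 S100 genes with 95% intervals, on the left Dll1+ minus Dll1- within each reporter and on the right PyMT-Dll1mCh minus PyMT-Dll1GFP within each sort gate, with filled points for an adjusted p under 0.05 and S100a9 on the right as a value only. S100a1 is the gene filled in both reporters on the left, at 0.66 and 0.58, and lies near 0 on the right, at -0.02 and -0.10.

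The last comparisons set the PyMT-Dll1mCh against the PyMT-Dll1GFP mice. The reporter, the line and the individual mice cannot be told apart here, since each reporter is represented by 2 mice. S100a9, which passed the filter on low counts through the PyMT-Dll1mCh libraries, is described without a test. In Dll1- cells 4 of the other 9 genes were called, all higher in PyMT-Dll1mCh mice, where 36.6% of all genes tested were called (18.7% higher and 17.9% lower). In Dll1+ cells 4 of the 9 were called, again all higher, where 30.6% of all genes tested were (15.2% higher and 15.4% lower). The medians of the 9 log2 differences were 0.79 and 0.80, against 0.01 and 0.07 for all genes tested. Both comparisons lost every call among all genes tested when either PyMT-Dll1GFP mouse was left out. S100a4, S100a8 and S100a11 were called in both, S100a13 in Dll1- and S100a14 in Dll1+ cells.

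S100a9 had only 4, 11, 4 and 11 counts in the PyMT-Dll1GFP libraries (mouse 1 Dll1-, mouse 1 Dll1+, mouse 2 Dll1-, mouse 2 Dll1+), against 265, 115, 48 and 60 counts in the PyMT-Dll1mCh libraries in the same order of mice 3 and 4. In CPM this was 0.136, 0.384, 0.139 and 0.246, against 2.12, 1.75, 1.59 and 1.08, and the lines did not overlap. The log2 difference was 3.74 in Dll1- and 2.19 in Dll1+ cells.

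S100a8, its partner in calprotectin, was at 9.62 and 9.56 CPM in the Dll1- and Dll1+ cells of mouse 1, at 10.1 and 5.84 CPM in mouse 2, at 36.3 and 28.2 CPM in mouse 3, and at 24.01 and 19.2 CPM in mouse 4. All libraries of the PyMT-Dll1mCh mice were above all of the PyMT-Dll1GFP mice. The log2 difference was 1.62 (SE 0.319, adjusted p 0.0099 in edgeR's test) in Dll1- and 1.63 (SE 0.320, adjusted p 0.0131) in Dll1+ cells, a 3.07- and a 3.10-fold higher level. Of the 18 neutrophil markers 9 were tested. Of these, Il1r2, Clec4d and Hdc had 5 to 25 counts in the PyMT-Dll1GFP and 31 to 254 counts in the PyMT-Dll1mCh libraries. They passed the filter on low counts through the PyMT-Dll1mCh libraries, so no test between the lines is given for them. In Dll1- cells Csf3r, Mmp9 and Trem1 were called higher and Ltf lower in PyMT-Dll1mCh mice. In Dll1+ cells only Ltf was called, again lower. The 9 markers not tested stayed under 1 CPM in every library, among them Ly6g, Mpo and Elane. The list was led by Ltf, which mammary epithelium also makes. Without Ltf its sum was 12.2 to 12.9 CPM in the Dll1- and 6.70 to 7.52 CPM in the Dll1+ cells of the PyMT-Dll1GFP mice, against 31.3 to 39.6 and 11.3 to 18.3 CPM in the PyMT-Dll1mCh mice. Of these sums Cd177 alone was 9.48 and 7.59 CPM in the Dll1- and 2.27 and 2.28 CPM in the Dll1+ cells of mice 1 and 2. In mice 3 and 4 it was 25.6 and 4.89 CPM, and 10.5 and 2.14 CPM. With Dll1, 6 of the 9 tested markers had a positive and 3 a negative log2 difference in the PyMT-Dll1GFP mice. Cd177 was the only one called there, and it was lower (-1.89, adjusted p 0.0039 in edgeR's test). In the PyMT-Dll1mCh mice 1 was positive and 8 were negative, and 3 of the 9 were called, where 11.8% of all genes tested were. Ltf (0.91) was higher, and Cd177 (-1.24) and Il1r2 (-1.90) were lower, with adjusted p values of 0.0114 to 0.0220 in edgeR's test.

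S100a4 was at 3.04 and 2.89 CPM in the Dll1- and Dll1+ cells of mouse 1, at 1.87 and 2.10 CPM in mouse 2, at 10.02 and 6.21 CPM in mouse 3, and at 22.0 and 15.1 CPM in mouse 4. The lines did not overlap, and mouse 4 was above mouse 3 on both sides of the sort. The log2 difference was 2.70 (SE 0.576, adjusted p 0.0128 in edgeR's test) in Dll1- and 2.10 (SE 0.563, adjusted p 0.0331) in Dll1+ cells. With 1 mouse left out it was 2.07 to 3.16 in Dll1- and 1.33 (without mouse 4) to 2.57 in Dll1+ cells. S100a4 was not called in Dll1+ cells with the libraries of a mouse treated as correlated in limma, nor with no filter on low counts. S100a4 shares 49.2% of its 31-base words with Gm42674, which overlaps it on the same strand and had 0 counts in all 8 libraries.

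The fibroblast and macrophage markers moved the same way between the lines as these genes. In Dll1- cells 10 of 10 fibroblast markers, led by Col3a1, Col1a1 and Col1a2, and 14 of 14 macrophage markers, led by Lyz2, C1qa and C1qb, were called higher in PyMT-Dll1mCh mice. So were 10 of 10 endothelial markers, led by Eng, Pecam1 and Cdh5. In Dll1+ cells it was 7 of 10 fibroblast, 9 of 14 macrophage and 4 of 10 endothelial markers. Of the 8 basal epithelial markers 5 were called higher in Dll1+ cells (median log2 difference 2.10), and 2 higher and 1 lower in Dll1- cells (median 1.46). The part of such cells in the S100 differences was not tested. The luminal markers had 1 of 10 called lower in Dll1- and 1 of 10 called higher in Dll1+ cells.

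**Figure D4:**
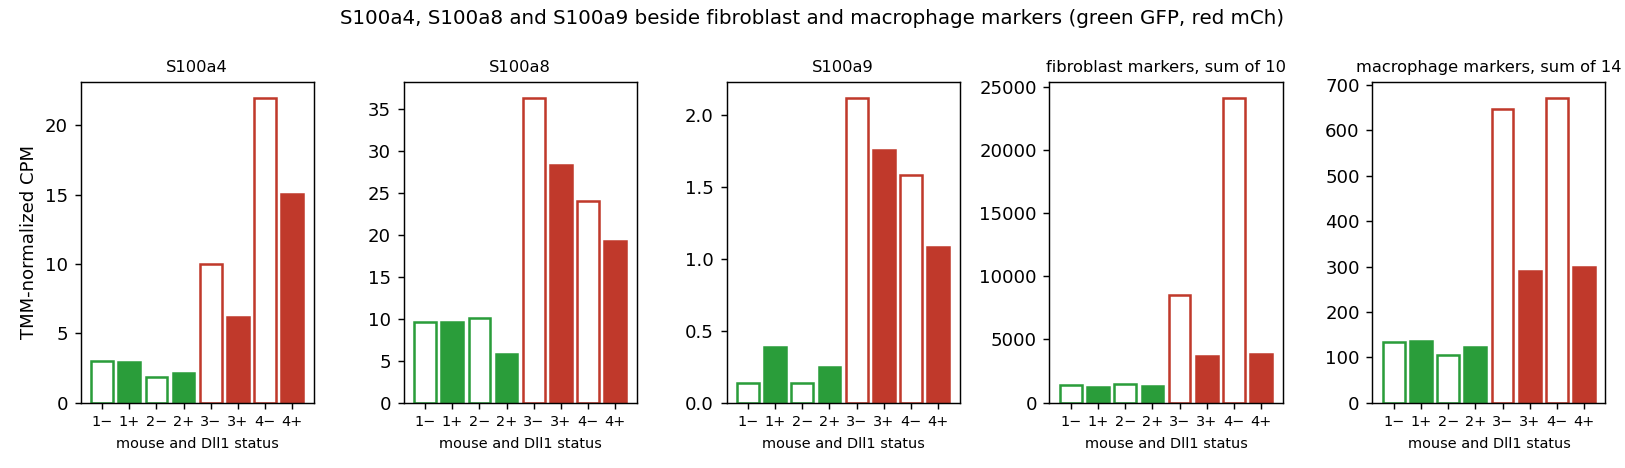
TMM-normalized CPM of S100a4, S100a8 and S100a9 and the summed CPM of 10 fibroblast and 14 macrophage markers, as bars from 0 for the Dll1- (open) and Dll1+ (filled) library of mice 1 to 4, green for PyMT-Dll1GFP and red for PyMT-Dll1mCh. All 5 panels are higher in mice 3 and 4, and within these mice the Dll1- bar is higher than the Dll1+ bar.

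S100a11 was at 222 and 178 CPM in the Dll1- and Dll1+ cells of mouse 1, at 164 and 201 CPM in mouse 2, at 313 and 339.7 CPM in mouse 3, and at 279 and 296 CPM in mouse 4. The lines did not overlap, while the direction with Dll1 differed between mouse 1 and the other mice. The log2 difference between the lines was 0.61 (SE 0.168, adjusted p 0.0282 in edgeR's test) in Dll1- and 0.75 (SE 0.168, adjusted p 0.0189) in Dll1+ cells. The gene shares 48.9% of its 31-base words with pseudogenes, and the pseudogene Gm12854 took 34.6% to 39.5% of the counts of both. Without mouse 3 the calls of S100a11 were lost in both gates, as was that in Dll1- cells when this gate was fitted alone. With the counts of S100a11 and Gm12854 added up, an alternative chosen after seeing the data, the log2 differences were 0.61 (adjusted p 0.0156) and 0.74 (adjusted p 0.0113).

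S100a13 was called in Dll1- cells, with a log2 difference of 0.72 (SE 0.131, adjusted p 0.0072 in edgeR's test). In Dll1+ cells it was 0.31 with an adjusted p of 0.116. S100a14 was called in Dll1+ cells, with 2.24 (SE 0.521, adjusted p 0.0215), where the PyMT-Dll1GFP mice had 2.72 and 4.45 CPM against 18.6 and 15.5 CPM, and in Dll1- cells it was 0.94 (adjusted p 0.179). There it was 1.55 and called without mouse 4 (adjusted p 0.0148), and -0.01 without mouse 3. These same settings, correlated libraries or no filter, ended the call of S100a14 in Dll1+ cells.

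S100a10 was at 71.1 and 70.0 CPM in the Dll1- and Dll1+ cells of mouse 1, at 65.8 and 65.5 CPM in mouse 2, at 103 and 99.8 CPM in mouse 3, and at 204 and 222 CPM in mouse 4. Again the lines did not overlap, but the PyMT-Dll1mCh mice were far apart. The log2 difference of 1.16 in Dll1- cells had an adjusted p of 0.0730 and that of 1.25 in Dll1+ cells one of 0.0652 in edgeR's test. With the libraries of a mouse treated as correlated in limma, both were called, with adjusted p values of 0.0486 and 0.0481. DESeq2 called both as well, with adjusted p values of 0.0096 and 0.0081. Without mouse 3 the log2 differences were 1.57 in Dll1- and 1.68 in Dll1+ cells, and without mouse 4 they were 0.64 and 0.57.

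S100a6 was at 216 and 220.2 CPM in the Dll1- and Dll1+ cells of mouse 1, at 155 and 172 CPM in mouse 2, at 173 and 167 CPM in mouse 3, and at 468 and 516 CPM in mouse 4. Mouse 4 alone stood apart, in both libraries, and mouse 3 was within the range of the PyMT-Dll1GFP mice. The log2 difference of 0.79 in Dll1- cells had a 95% interval of -0.67 to 2.25 (adjusted p 0.352 in edgeR's test). Without mouse 4 it was -0.05 in Dll1- and -0.22 in Dll1+ cells, and without mouse 3 it was 1.33 and 1.36 and passed the threshold (adjusted p 0.0121 and 0.0132). S100a16 was not called either, with 0.53 (adjusted p 0.177) and 0.29 (adjusted p 0.449), and passed without mouse 3 as well (0.87 and 0.45, adjusted p 0.0034 and 0.0333).

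S100a1, the gene that differed with Dll1, did not differ detectably between the lines. Its log2 difference was -0.02 (95% interval -0.27 to 0.23) in Dll1- and -0.10 (-0.35 to 0.15) in Dll1+ cells. A difference as large as the 0.62 seen with Dll1 lies outside both intervals.

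Scaled with TMM factors, the 10 genes summed to 0.0539% of the library in the Dll1- cells of mouse 2, the lowest value. The highest was 0.131%, in the Dll1+ cells of mouse 4. These percentages are on the scale of CPM and are not shares of the raw counts. In CPM the 10 genes summed to 539 to 678 in the PyMT-Dll1GFP and to 818 to 1313 in the PyMT-Dll1mCh libraries. Both libraries of mouse 4 were above both of mouse 3. Without S100a6, the most abundant of them by CPM, the sums were 384 to 484 and 646 to 797.

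Of the other S100 genes, 7 were in the table and 4 were tested. S100g, a calcium carrier of the gut known as calbindin, was at 1.399 and 6.84 CPM in the Dll1- and Dll1+ cells of mouse 1, at 2.67 and 4.43 CPM in mouse 2, at 0.0641 and 0.305 CPM in mouse 3, and at 0.528 and 0.792 CPM in mouse 4. It was higher with Dll1 in 4 of 4 mice but did not pass (log2 difference 1.41, adjusted p 0.0589 in edgeR's test). It was lower in the PyMT-Dll1mCh mice, by log2 differences of -3.09 in Dll1- and -3.36 in Dll1+ cells, opposite in direction to the called genes above. In these mice it had only 8 and 20 counts (mouse 3 Dll1- and Dll1+) and 16 and 44 counts (mouse 4). It passed the filter on low counts through the PyMT-Dll1GFP libraries, so the difference between the lines is given without a test. S100b, a glial S100 protein, was lower with Dll1 in the PyMT-Dll1GFP mice, from 12.1 to 8.40 CPM in mouse 1 and from 18.1 to 11.05 CPM in mouse 2 (log2 difference -0.62, adjusted p 0.0372 in edgeR's test). It was not called in the PyMT-Dll1mCh mice (-0.13, adjusted p 0.544) or over the 4 mice (-0.37, adjusted p 0.118). The difference between the effects in the reporters did not pass either (adjusted p 0.334). S100a3 and S100a7a, at 0.208 to 1.59 CPM, were not called in any comparison.

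Among 22 known partners and receptors of S100 proteins, 21 were tested and 4 (19%) were called higher and 0 lower with Dll1 over the 4 mice, where 14% of all genes tested were called and 6.98% higher. Fgf1, a growth factor that leaves cells together with S100a13, had the largest log2 difference of the 4. It was at 20.3 and 36.0 CPM in the Dll1- and Dll1+ cells of mouse 1, at 20.5 and 30.9 CPM in mouse 2, at 14.2 and 24.5 CPM in mouse 3, and at 9.22 and 17.02 CPM in mouse 4, a log2 difference of 0.77 (SE 0.075, adjusted p 0.0063 in edgeR's test). Tlr4, a receptor of S100a8 and S100a9, had 0.43 (adjusted p 0.0184). Ahnak, a large scaffold protein bound by S100a10 and Anxa2, had 0.40 (adjusted p 0.0321), and Anxa1, a partner of S100a11, had 0.29 (adjusted p 0.0364). Anxa2, the partner of S100a10, had 0.15 (adjusted p 0.290) and Ager, the other receptor, had -0.24 (adjusted p 0.404).

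Within the reporters, Fgf1 was called in the PyMT-Dll1GFP mice (0.71, adjusted p 0.0142), the only one of the 21 (4.76%, against 9.13% of all genes tested). In the PyMT-Dll1mCh mice 5 (23.8%) were called, against 11.8% of all genes tested. Fgf1 (0.83) and Tlr4 (0.50) were higher, while Plat (-1.82) and Plau (-0.79), the plasminogen activators, and Cd36 (-1.29), a fatty acid receptor bound by S100a8 with S100a9, were lower, with adjusted p values of 0.0099 to 0.0330. Between the lines, 8 of 21 (38.1%) were called in Dll1- cells, near the 36.6% of all genes tested, 6 higher (Plat, Plau, Cd36, Bsg, Anxa6 and Sugt1) and 2 lower (Fgf1 and S100pbp) in PyMT-Dll1mCh mice. In Dll1+ cells 6 (28.6%) were called, near the 30.6% of all genes tested, with Plat, Bsg, Anxa6, Cacybp and Sugt1 higher and S100pbp lower. Plat had the largest of these differences, 3.67 in Dll1- and 1.83 in Dll1+ cells on the log2 scale.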

How the data were processed

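RNA was measured in 8 libraries of sorted cells from 4 mice, made with a stranded kit. The authors mapped reads with salmon to GENCODE mouse transcripts (GRCm38.p6), and, after summing transcripts by gene (tximport), deposited estimated counts, which are whole numbers without normalization. Salmon's version is not given in the sources used here. The S100 genes and all gene lists were chosen with earlier results of these data known.

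Genes were tested in R 4.3.3 with edgeR 4.0.16 (TMM, filterByExpr on Dll1 status, robust quasi-likelihood F test), with Benjamini-Hochberg adjustment over all 18322 genes in the test and a threshold of 0.05. Within mice, Dll1 status was fitted with the mouse as a block, over all mice and for each reporter, following the study's model. The pairs come from the mouse numbers in the labels. Deviations from the group means correlated across genes at -0.05 in the PyMT-Dll1GFP and 0.55 in the PyMT-Dll1mCh pairs. Reporters were compared in a model of 4 groups without a block, since a mouse carries 1 reporter. Nothing in the labels says that each library was a single tumor, and p values measure the spread between these samples. Per-library log2 values used a prior count of 2. Exon lengths, shared 31-base words and coordinates come from a GENCODE annotation of GRCm38 one release later than the authors' own. A floor of 3 counts was 0.0242 to 0.110 CPM, for counting error only.

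Alternatives were DESeq2 1.42.0, RLE size factors, other count filters, no block, limma 3.58.1 with the correlation within mice, each reporter or gate fitted alone, and each mouse left out. The tests were also run on data simulated without differences between the mice, so their behavior with such differences was not checked. Named were all 10 S100 genes, other S100 genes and partners that passed in any comparison, Anxa1, Anxa2, Ager and Tlr4, Dll1, the 3 most abundant genes of each marker list, and Ptprc, Pecam1 and Epcam. The neutrophil markers Csf3r, Cxcr2, Mmp9, Il1r2, Clec4d, Trem1, Hdc, Ltf, Ly6g, Mpo and Elane, and S100a3 and S100a7a, were named after their values were seen.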

Additional observations from a re-analysis of the deposited data

Results flagged for a closer look

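S100a9 moved in opposite directions with Dll1 in the reporter lines. It was higher in the Dll1+ cells of both PyMT-Dll1GFP mice, by per-mouse log2 differences of 1.27 and 0.68, and lower in those of both PyMT-Dll1mCh mice, by -0.27 and -0.54. The difference between the fitted effects was 1.56 on the log2 scale (SE 0.550, unadjusted p 0.0283 and adjusted p 0.309 in edgeR's quasi-likelihood test). It does not pass the correction, and the PyMT-Dll1GFP values rest on 4 to 11 counts per library. The gene passed the filter on low counts through the PyMT-Dll1mCh libraries.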

How the results depend on the processing

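The call of S100a1 over the 4 mice held in 9 of 9 alternatives, at log2 differences of 0.58 to 0.67. The number of S100 genes called (1 over the 4 mice, 1 in PyMT-Dll1GFP, 2 in PyMT-Dll1mCh mice) became 3, 3 and 1 with DESeq2, which added S100a14 and S100a16 in the first 2 comparisons. Of all genes DESeq2 called 4362, 2053 and 2473, against 2568, 1673 and 2154. Between the reporters 4 of the 9 genes other than S100a9 were called in each gate, where 36.6% (Dll1-) and 30.6% (Dll1+) of all genes tested were. None of these 9 gained or lost a call there where 10 counts were asked of every library, which leaves S100a9 out. With no filter on low counts S100a4 and S100a14 lost their calls between the reporters in Dll1+ cells (5766 of all genes called). The number of S100 genes called then became 2 over the 4 mice and 3 in the PyMT-Dll1GFP mice (2490 and 3001 of all genes). With the libraries of 1 reporter fitted alone it became 3 in PyMT-Dll1GFP (2337 of all genes) and 0 in PyMT-Dll1mCh mice, where 0 of all genes were then called. Without the mouse as a block it was 1, 1 and 0 (1352, 274 and 212 of all genes). As with DESeq2, S100a10 gained a call between the reporters in both gates with the correlation within mice as a block. S100a4 and S100a14 then lost theirs in Dll1+ cells (6176 of all genes called in Dll1- and 5124 in Dll1+ cells). Leaving out 1 mouse gave 1 to 3 over the 4 mice, 0 to 2 in PyMT-Dll1GFP mice, 0 to 1 in PyMT-Dll1mCh mice and 0 to 7 between the reporters in either gate, with 0 where a PyMT-Dll1GFP mouse was missing. Of all genes it gave 405 to 2400, 2 to 2355, 905 to 1315, and 0 to 7828 in Dll1- and 0 to 6897 in Dll1+ cells between the reporters. The range of 0 to 7 S100 genes between the reporters counts S100a9. It is therefore not on the basis of the 4 of 9 genes above, which leaves S100a9 out. The difference of effects had 0 S100 genes called in every alternative, while its count over all genes ranged from 0 to 1143.

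Directions changed only for values that were not called in the report. With RLE size factors, S100a10 was 0.00079 in PyMT-Dll1GFP and S100a13 -0.0086 in PyMT-Dll1mCh mice, and with DESeq2 0.00080 and -0.0089. S100a13 in PyMT-Dll1mCh mice was also -0.015 with no filter, -0.00088 without the block and -0.012 fitted alone. S100a6 in the difference of effects was -0.013 without the block, S100a1 between reporters in Dll1- cells 0.027 with no filter, and S100a11 in PyMT-Dll1GFP mice 0.00038 with Gm12854 added. With 1 mouse left out, the lowest and highest values of those that changed direction over the 4 mice were -0.18 and 0.38 for S100a9, -0.030 and 0.033 for S100a10 and -0.036 and 0.17 for S100a11. In PyMT-Dll1GFP mice they were -0.068 and 0.17 for S100a4, -0.023 and 0.00038 for S100a10 and -0.32 and 0.30 for S100a11. In PyMT-Dll1mCh mice they were -0.075 and 0.12 for S100a6, -0.079 and 0.10 for S100a10, -0.16 and 0.12 for S100a13 and -1.07 and 0.19 for S100a14. For the difference of effects they were -0.018 and 0.25 for S100a1, -0.020 and 0.17 for S100a6, -0.44 and 0.33 for S100a8, -0.11 and 0.075 for S100a10 and -0.43 and 0.20 for S100a11. Between the reporters they were -0.078 and 0.081 for S100a1, -0.055 and 1.33 for S100a6 and -0.014 and 1.55 for S100a14 in Dll1- cells, and -0.22 and 1.36 for S100a6 in Dll1+ cells. The cause was not tested. In all, of 579 values of single S100 genes under the alternatives, 482 kept direction and side of the threshold, 39 lost and 26 gained a call, and 32 changed direction. These totals include the values of S100a9 between the reporters.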
